A study of Caenorhabditis elegans with 2 samples.

Results

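The cdc-48 ATPase genes cdc-48.1 and cdc-48.2 and the cofactor genes ufd-1, npl-4.1 and npl-4.2 are 5 of 19973 protein-coding genes of Caenorhabditis elegans examined for binding of NHR-11. The genes were chosen by name after the strongest peak of the data set had been seen beside cdc-48.1, and the regions were then selected on their distance to each gene. Signal, rank and distance at these genes are therefore a description, and no test was made on them. All regions with a summit within 5000 bases of a gene body were taken, which gave 3 regions of the reproducible list, 22 distinct regions of the pooled list, 23 of replicate 1 and 21 of replicate 2.

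The assay was chromatin immunoprecipitation followed by sequencing (ChIP-seq) on whole L3 larvae of mixed sex from strain OP305, which carries the unc-119(ed3) mutation and the insertion wgIs305 with a copy of the nuclear hormone receptor gene nhr-11 fused to eGFP. There were 2 biological replicates of this single group, with no second genotype, stage or treatment, so positions in the genome were compared and not conditions. The labels name nhr-11 as the antibody, and whether it recognised the receptor or the eGFP tag is not settled by them. The listed genotype names no change in the worm's own nhr-11 gene, and whole animals mix all tissues, so the cells in which a region was bound cannot be told apart. Each candidate list holds 30000 regions that include background. The reproducible list holds 1030 regions from an irreproducible discovery rate (IDR) filter, which compares ranks between replicates. These are the 1030 strongest regions of the pooled list. Membership therefore amounts here to a cut on pooled signal and does not show that a single region had matching ranks in both replicates. The signal is the value that the authors' peak caller gave to each region against a control, on a scale that is not stated. Ranks and signals are therefore read within a list, and read depth behind them is unknown.

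CDC-48, called p97 or VCP in mammals, is a ring-shaped AAA ATPase that uses ATP to pull ubiquitin-marked proteins out of membranes, chromatin and protein complexes. UFD-1 and NPL-4 form the adaptor that brings ubiquitin-marked substrates to CDC-48, and the proteins released are mostly degraded by the proteasome. The worm has a pair of closely related genes for the ATPase and a pair for NPL-4, and the enzyme is known there for roles in degradation of proteins of the endoplasmic reticulum, in DNA replication and in meiosis.

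The strongest region of the whole data set lay just before cdc-48.1, while its paralog and the cofactor genes had no region of the reproducible list within 5000 bases. The cdc-48.1 region spans chrII:10563462-10563684 on ce11 and lies wholly between genes, from 277 to 55 bases upstream of the annotated 5′ end. Its sequence is shown first, because it underlies the highest signal, and the matching stretch before cdc-48.2 (chrII:8138219-8138441) and before npl-4.1 and npl-4.2 (chrII:5631074-5631296 and chrII:5622612-5622834) follows for comparison. All come from the RefSeq genome WBcel235 and are read 5′ to 3′ on the strand of the gene, the minus strand for cdc-48.1 and the plus strand for the others. Capitals mark every match to 1 of 16 short words, and the cdc-48.1 summit is base 107 of its stretch. The ufd-1 stretch is not shown because it reaches into the 3′ UTR of the neighbouring gene F19B6.1.
cdc-48.1: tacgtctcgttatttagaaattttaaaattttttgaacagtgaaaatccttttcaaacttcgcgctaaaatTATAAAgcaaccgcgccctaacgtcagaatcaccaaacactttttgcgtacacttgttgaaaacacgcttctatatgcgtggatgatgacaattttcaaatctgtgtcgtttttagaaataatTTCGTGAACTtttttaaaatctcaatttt
cdc-48.2: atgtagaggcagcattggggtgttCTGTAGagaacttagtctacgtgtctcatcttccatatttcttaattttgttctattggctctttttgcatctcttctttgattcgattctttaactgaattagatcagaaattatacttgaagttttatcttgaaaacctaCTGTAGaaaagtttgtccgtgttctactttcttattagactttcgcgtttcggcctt
npl-4.1 and npl-4.2: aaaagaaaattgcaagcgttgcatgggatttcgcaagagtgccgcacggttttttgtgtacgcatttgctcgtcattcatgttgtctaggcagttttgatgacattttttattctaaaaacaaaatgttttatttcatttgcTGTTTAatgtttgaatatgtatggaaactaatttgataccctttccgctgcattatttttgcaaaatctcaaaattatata

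The ATPase genes are more alike in their coding sequence than before it. cdc-48.1 lies on the minus strand of chromosome II at 10560036 to 10563407 and cdc-48.2 on its plus strand at 8138496 to 8141230. The coding sequences of cdc-48.1 and cdc-48.2, of 2427 and 2430 bases, were identical at 75.4% of aligned positions, and the encoded proteins of 809 and 810 residues at 88.1%. In contrast, the 223-base stretches before the starts were identical at 114 of 259 aligned positions (44.0%), gaps included. Unrelated stretches were not aligned for comparison, so whether 44.0% exceeds their likeness was not tested. Of the 31-base words in the cdc-48.1 region, 100% occurred once in the genome, as did 100% of those in the start window of cdc-48.2. Over the longer start window of cdc-48.1 the share was 91.8%. How reads were aligned is not given in the sources used here, so their placement was not tested. The start window runs from 1000 bases upstream to 500 bases downstream of the 5′ end.

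The npl-4 genes are near copies, which limits what the lists can show of them. Their coding sequences, 1587 bases each, were identical at 99.5% of positions, and the stretches printed as 1 line above were identical at all 223 positions. Only 2.11% of the 31-base words in either start window occurred once in the genome, against 100% in the start windows of ufd-1 and cdc-48.2 and 91.8% in that of cdc-48.1. How reads with several possible positions were treated is not given in the sources used here, so an empty start window at npl-4.1 or npl-4.2 cannot be told apart from reads that were not placed.

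The cdc-48.1 region led every list on ce11. Its signal was 449 in replicate 1 and 453 in replicate 2, with rank 1 in each, and 899 with rank 1 in the pooled and reproducible lists. The next strongest regions had 280 in replicate 1, 236 in replicate 2 and 516 in the pooled list. The strongest region thus stood 1.60, 1.92 and 1.74 times above the next one in those lists. In the lists on the older ce10 build the strongest region was on chromosome II too, with signals of 446 in replicate 1, 455 in replicate 2 and 896 in the pooled list. Coordinates were not converted between the builds.

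Both replicates placed the summit at the same point to within a few bases. It lay 166 bases upstream of the cdc-48.1 start in replicate 1, 169 in replicate 2 and 171 in the reproducible list. The replicate summits were 3 bases apart, whereas over the 1027 reproducible regions listed in both replicates the median was 21 bases and 14.8% were at most 3 bases apart. The pooled signal was 0.996 of the sum of both replicate signals, against a median of 1.01 over those regions. The region was also narrower than usual, with 223 bases in place of 356, and 4 of the 1030 reproducible regions had a width other than 356, at ranks 1, 2, 6 and 22.

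**Figure D1:**
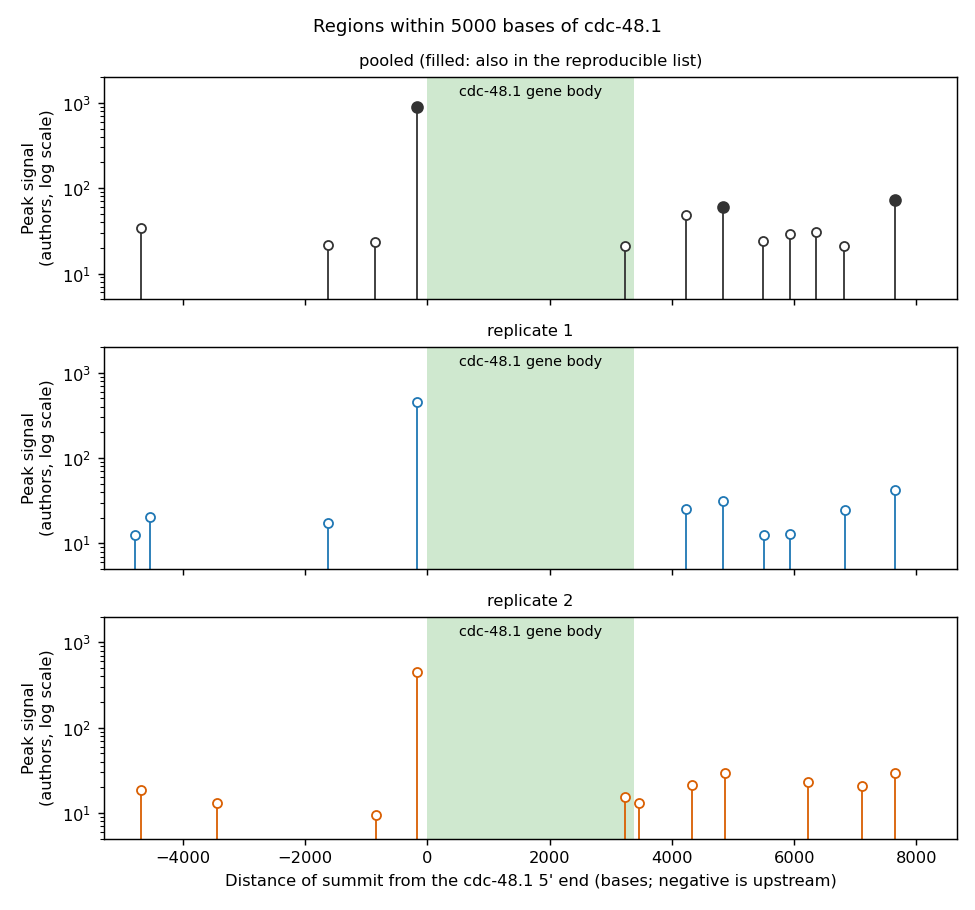
Each point is a region with its summit within 5000 bases of cdc-48.1, placed by its distance from the 5′ end in bases (x axis) and by the peak signal given by the authors (y axis, log scale), for the pooled list and both replicates; the green band is the gene body. The region upstream of the start has a signal of 899 in the pooled list, 449 in replicate 1 and 453 in replicate 2, and no other region within 5000 bases exceeds 72.4 in the pooled list.

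The flanks of cdc-48.1 carried many further regions, all weak beside the one at the start. Within 5000 bases of the gene there were 12 pooled regions, a number reached by 1.25% of protein-coding genes, and 3 reproducible regions, reached by 0.255%. The strongest was 12.4 times the next in the pooled list, 10.6 times in replicate 1 and 15.2 times in replicate 2. Of the 12 pooled regions, 7 (58.3%) were matched in both replicates, against 46.7% of all pooled regions. A further 2 were matched in replicate 1 alone and 3 in replicate 2 alone. Per kilobase of gene and flanks there were 0.897 pooled regions, against a median of 0.278 over protein-coding genes, and 99.8% of genes had fewer. In the replicates these densities were 0.748 per kilobase in replicate 1 (98.9% of genes had fewer) and 0.823 in replicate 2 (99.4%).

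The pooled regions that fell below the reproducible list lay on both sides of cdc-48.1. Past its 3′ end there were 5 more, of which the strongest had rank 1380 at 852 bases from the end. Replicate 1 listed that region at 24.9 (rank 1779) and replicate 2 listed one 957 bases from the end at 21.2 (rank 2417). On the upstream side lay 3 further pooled regions, with signals of 23.6 in the coding sequence of C06A1.6, 21.6 in that of C06A1.7 and 34.5 between genes at 4689 bases. The weak regions thus outnumbered the reproducible ones, and most lay between cdc-48.1 and mnk-1.

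The other reproducible regions near cdc-48.1 lay past its 3′ end, between it and mnk-1, a protein kinase gene on the same strand. The nearer one, chrII:10558388-10558743, had its summit 1470 bases past the end of cdc-48.1 and 3522 bases upstream of mnk-1. Its signal was 31.6 in replicate 1 (rank 822), 29.8 in replicate 2 (rank 925) and 60.9 in the pooled list (rank 815). The farther one, chrII:10555572-10555927, had its summit 4286 bases past cdc-48.1 and 706 bases upstream of mnk-1, inside the start window of mnk-1. Its signal was 42.2 in replicate 1 (rank 384), 29.7 in replicate 2 (rank 935) and 72.4 in the pooled list (rank 543). These regions were nearer to the start of mnk-1 than to that of cdc-48.1, and the farther one lay 379 bases upstream of the snoRNA gene R166.10. The nearer one lay 922 bases upstream of the ncRNA gene R166.11.

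Inside cdc-48.1 itself the lists were almost empty. The pooled list had 1 region with its summit in the gene, in the 3′ UTR, with a signal of 21.0 and rank 24540. Replicate 2 listed it at 15.6 (rank 7359) and replicate 1 did not list it. No summit of any list lay in the snoRNA genes C06A1.8 and C06A1.9 within it, and the strongest region lay 514 bases upstream of C06A1.9, which is nested in cdc-48.1. Upstream of the strongest region, the next genes were C06A1.6 on the same strand, with its 3′ end 704 bases from cdc-48.1, and C06A1.7 and the ncRNA gene C06A1.11 on the other strand. The summit of the strongest region lay 1313 bases upstream of the C06A1.7 start and 1100 bases downstream of that of C06A1.6, outside the start windows of both.

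Of the 5 genes, cdc-48.1 alone had a reproducible summit in its start window, against 3.3% of all protein-coding genes (659 of 19973). It was also the only one with a reproducible summit within 5000 bases of the gene, against 12.1% of protein-coding genes. In the pooled list of candidates, cdc-48.1 and cdc-48.2 had a summit in the start window, that is 2 of 5 against 43.2%. All 5 genes had a pooled candidate within 5000 bases, against 95.7%. Only cdc-48.1 had a candidate summit in its start window in both replicates, against 26.0% of protein-coding genes. A share of 1 in 5 near a background of 26.0% says nothing particular of the set, and the genes were picked with the cdc-48.1 region known.

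cdc-48.2, the ATPase paralog, had candidate regions but none near the strength of the reproducible list, which ended at 54.9. In the pooled list the nearest to its start lay 891 bases upstream, between cdc-48.2 and the divergent gene ctns-1, and was nearer to the start of ctns-1, at 687 bases. Its signal was 14.4 in replicate 2 (rank 9751) and 23.8 in the pooled list (rank 17132), and replicate 1 did not list it. The strongest pooled region within 5000 bases had a signal of 29.5 (rank 8007) and lay in the 5′ UTR of ints-11, the neighbouring gene for an Integrator subunit. The strongest in replicate 1 had 19.2 (rank 5068), 22 bases upstream of the same gene, and the strongest in replicate 2 had 21.5 (rank 2285), in the 3′ UTR of ulp-4. The replicates thus had their strongest regions on opposite sides of cdc-48.2. A stronger region was found at 43.5% of protein-coding genes in replicate 1 and at 23.1% in replicate 2, so the replicate 2 value stood higher among genes. Replicate 2 alone also listed a summit 419 bases inside cdc-48.2, in coding sequence, at 9.58 (rank 29340). In all, 5 pooled regions lay near cdc-48.2, of which 4 were matched in both replicates, against 46.7% of all pooled regions.

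ufd-1, which encodes the ubiquitin-binding adaptor subunit, had the fewest regions. It lies on chromosome IV at 12329408 to 12330890 on the minus strand, and F19B6.1 on the same strand ends 85 bases before its start. The pooled list had 1 region, 3096 bases past the gene's end, with a signal of 23.3 (rank 18544), which replicate 1 listed at 16.5 (rank 9249). Replicate 1 also had a region 1766 bases upstream, in an intron of F19B6.1, with a signal of 12.9 (rank 20650). Replicate 2 listed no region within 5000 bases of ufd-1. Per kilobase of gene and flanks, 9.82% of protein-coding genes had fewer pooled regions than ufd-1.

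npl-4.1 and npl-4.2 lie on the plus strand of chromosome II, at 5631351 to 5633284 and at 5622889 to 5624959, and no list had a summit in either gene or in its start window. The strongest pooled region near npl-4.1 had a signal of 26.1 (rank 12655), 2022 bases upstream, in the 5′ UTR of F59E12.6. That region also lay within 5000 bases of npl-4.2 and is counted for both genes. In replicate 1 the strongest near npl-4.1 had 13.9 (rank 16766), and in replicate 2 the only one had 11.3 (rank 19918), 3717 bases past the gene. The strongest pooled region near npl-4.2 had 29.2 (rank 8337), 2781 bases upstream, in the coding sequence of eif-3.L, a subunit of translation initiation factor eIF3. Replicate 1 listed it at 20.9 (rank 3541) and replicate 2 did not. The only region of replicate 2 near npl-4.2 had 13.0 (rank 13596), in the 3′ UTR of eif-3.L.

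**Figure D2:**
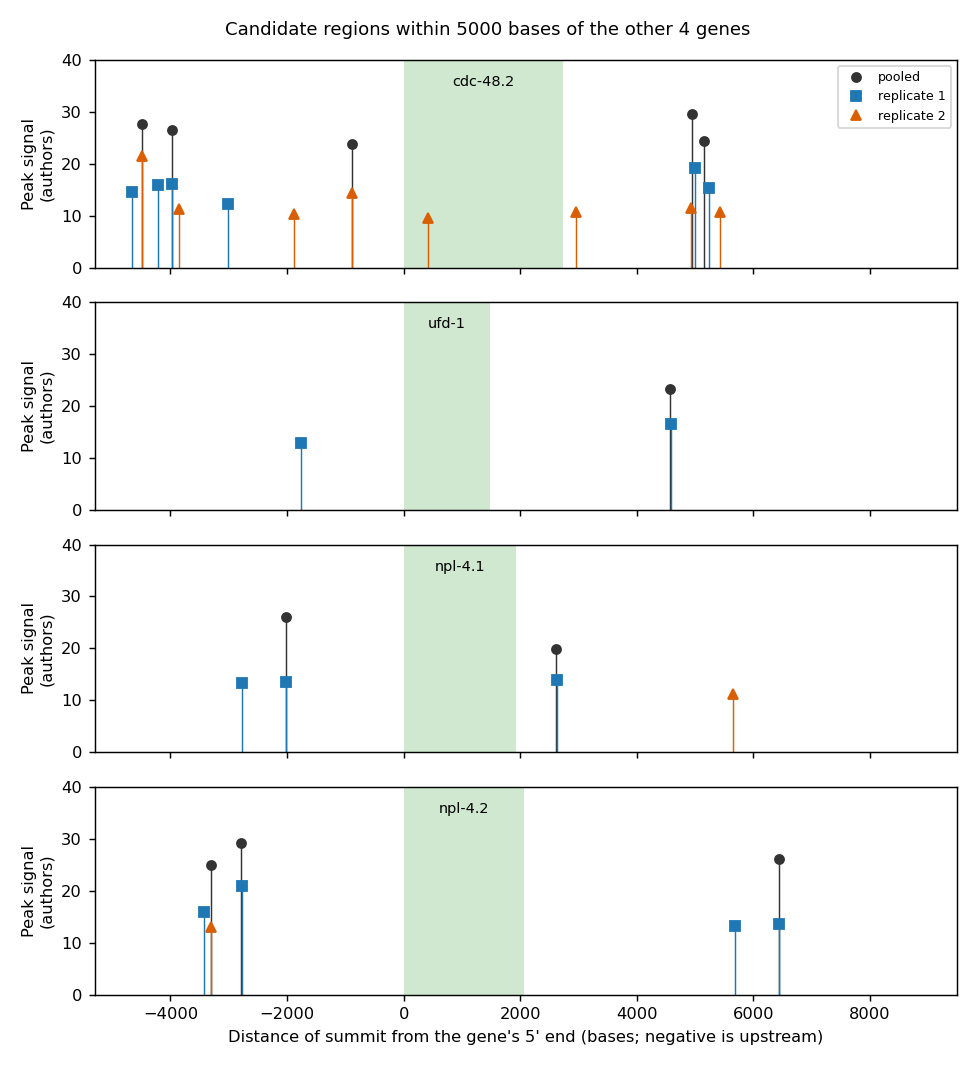
Candidate regions within 5000 bases of cdc-48.2, ufd-1, npl-4.1 and npl-4.2, placed by the distance of the summit from the gene's 5′ end in bases (x axis) and by the peak signal given by the authors (y axis, linear), with a marker for each list and the gene body in green. No signal reaches 30, and the strongest are 29.5 near cdc-48.2 and 29.2 near npl-4.2, both in the pooled list.

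Ordered by the strongest pooled region within 5000 bases, the genes ran from cdc-48.1 at 899 through cdc-48.2 at 29.5, npl-4.2 at 29.2 and npl-4.1 at 26.1 to ufd-1 at 23.3. The median over protein-coding genes with such a region was 31.8 and the 95th percentile 86.6. By this value 58.0% of protein-coding genes had a stronger region than cdc-48.2, and 86.4% had a stronger one than ufd-1. In replicate 1 the order below cdc-48.1 was npl-4.2 at 20.9, cdc-48.2 at 19.2, ufd-1 at 16.5 and npl-4.1 at 13.9. In replicate 2 it was cdc-48.2 at 21.5, npl-4.2 at 13.0 and npl-4.1 at 11.3. The order of the 4 weak genes therefore changed between replicates, while cdc-48.1 was at least 21.1 times above each of those listed in either replicate.

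**Figure D3:**
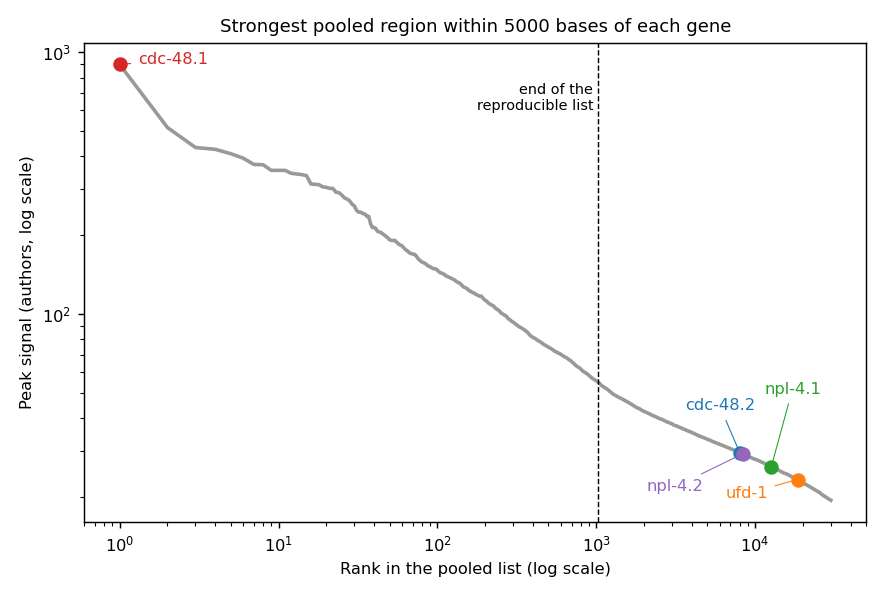
Peak signal given by the authors (y axis, log scale) against rank in the pooled list (x axis, log scale) for the 30000 pooled regions (grey line), with the strongest region within 5000 bases of each gene as a coloured point and the end of the reproducible list at rank 1030 dashed. The point of cdc-48.1 is at rank 1, and the other 4 points lie between ranks 8007 and 18544.

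**Figure D4:**
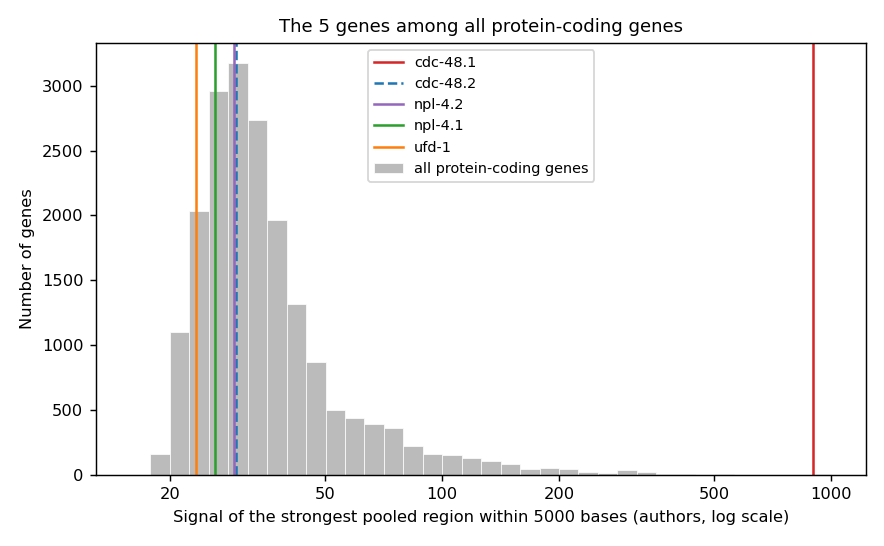
Number of protein-coding genes (y axis) by the signal of their strongest pooled region within 5000 bases (x axis, log scale), with a vertical line for each of the 5 genes. The cdc-48.1 line is at 899, and the other lines lie from 23.3 to 29.5, below the median of 31.8.

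The rule on distance and the reproducible list each have an edge. The reproducible list ended at a signal of 54.9, and the strongest pooled region outside it had 54.8. At cdc-48.1 the pooled region just inside 5000 bases lay 4689 bases away with a signal of 34.5, and the one just outside lay 5736 bases away with 34.9. At npl-4.2 the pooled region just outside lay at 5035 bases with 27.4. At cdc-48.2 it lay at 5361 bases with 33.3, which is stronger than every pooled region counted for that gene. At ufd-1 it lay at 6157 bases with 29.7, above the 23.3 of the only one counted, so the last place of ufd-1 in the order by pooled signal rests on the limit of 5000 bases. The reproducible region just outside at cdc-48.1 lay at 6253 bases with 73.5, above the 72.4 of the strongest one counted past the 3′ end.

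The cdc-48.1 region held few of the words searched. On both strands of the 223 bases, 3 of 16 words were found, namely TATAAA starting 206 bases upstream of the gene, TTCNNGAA starting 83 bases upstream, and AGTTCA starting 79 bases upstream on the other strand, where it overlaps TTCNNGAA. TATAAA, the core of the TATA box, was within 50 bases of the summit, while the other matches were farther away. TTCNNGAA is part of the heat shock element and AGTTCA a word that nuclear receptors can bind. In windows of the same length around reproducible summits these were found in 12.9% (TATAAA), 8.64% (TTCNNGAA) and 8.93% (AGTTCA) of 1030, and in the same stretch before 19973 protein-coding starts in 27.9% (TATAAA), 13.7% (TTCNNGAA) and 16.2% (AGTTCA).

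Of the words found more often in summit windows than before starts, the 5 with the widest gap were absent from the strongest region. TGACTCA and TGACGTG, with a small gap in the same direction, were absent too and are given below. GAGAGA was in 47.2% of summit windows of that length and 16.6% of stretches before starts, ACGCAG in 26.1% and 6.56%, and AGACGC in 22.2% and 6.11%. The E-box word CACGTG was in 10.3% and 4.29%, and GCGCGC in 10.2% and 3.02%. None of these 5 words was in the cdc-48.1 region, as for 32.3% of all summit windows, 9 of the 20 strongest (45.0%) and 71.5% of stretches before starts. Because the 5 words are grouped by their higher share in these same summit windows, the gap between 32.3% and 71.5% follows from that choice. The words AGGTCA (5.44% of summit windows and 6.56% of stretches) and AAGTCA (9.32% and 9.92%), which nuclear receptors can bind, were not found there. The remaining words without a match were TGATAA (13.4% and 23.9%), TGTTTA (12.1% and 20.8%), TGACTCA (3.50% and 2.90%), CTGTAG (4.76% and 5.97%), TGACGTG (2.52% and 2.12%) and GAANNTTC (8.16% and 14.2%). A word that is missing says only that these letters are not in the window.

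The base composition of the strongest region was low in G and C among the reproducible regions and ordinary for a stretch before a gene. The stretch itself had 31.8% G and C before cdc-48.1, 33.2% before ufd-1, 32.3% before each npl-4 gene and a higher share before cdc-48.2. Over the same stretch of 19973 protein-coding starts the median was 33.6%, and all 5 genes lay between the quartiles. In 223 bases centred on the summit, G and C made up 32.3%, against a median of 42.6% over the 1030 reproducible regions, and 66 regions (6.41%) had less. It was the lowest of the 20 strongest regions, whose values ran from 32.3% to 60.5%. Within 50 bases of the summit the content was 42.6%, against a median of 45.5%, and 35.7% of regions had less. Among the printed stretches, the word CTGTAG occurred at 253 and 111 bases upstream of cdc-48.2, and TGTTTA at 135 bases upstream of npl-4.1 and npl-4.2. The ufd-1 stretch held CACGTG at 143 bases upstream of ufd-1.

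Partner genes of CDC-48 from a fixed list were examined in the same way. Of 11 genes for other CDC-48 partners, 1 had a reproducible summit in its start window, against 3.3% of all protein-coding genes. It was ufd-3, known in yeast as a CDC48-binding protein of ubiquitin turnover, with a region 117 bases upstream at chrII:9940458-9940813. Its signal was 58.2 in replicate 1 (rank 190), 27.4 in replicate 2 (rank 1119) and 95.3 in the pooled list (rank 285), so its rank was higher in replicate 1. A pooled candidate was at the start of 5 of the 11 genes, against 43.2% of all protein-coding genes, and a reproducible summit was within 5000 bases of 4, against 12.1%. Within 50 bases of the ufd-3 summit none of the 16 words was found, as at atad-3 and ubc-6. The strongest partner gene below the reproducible list was ubxn-3, a UBX-domain adaptor, with 54.7 at rank 1037, next to the end of the list. The median of the strongest pooled region within 5000 bases was 41.7 over these genes, against 31.8 over all protein-coding genes with one.

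Genes of degradation at the endoplasmic reticulum (ERAD) had a reproducible summit at 2 of 10 starts, both low in the list, against 3.3% of all protein-coding genes. They were marc-6, whose yeast relative is a ubiquitin ligase of that membrane, at 63.5 (rank 746), and ubc-6, a ubiquitin-conjugating enzyme, at 55.8 (rank 986). Neither region was among the 1030 strongest of replicate 1 or replicate 2, with marc-6 at ranks 2107 and 1089 and ubc-6 at ranks 1131 and 1137. With the 1030 strongest regions of either replicate alone, 0 of the 10 genes were therefore counted. The other ERAD genes with the strongest pooled regions were ubc-7 at 34.7 and cup-2, a Derlin gene, at 32.7, and the cup-2 region was nearer to the start of tag-353. A pooled candidate was at 5 of the 10 starts, against 43.2% of all protein-coding genes, and a reproducible summit was within 5000 bases of 4 genes, against 12.1%. Over the list the median of the strongest pooled region within 5000 bases was 36.4, against 31.8 over all protein-coding genes with one.

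Among 25 further AAA ATPase genes, 2 had a reproducible summit at their start, against 3.3% of all protein-coding genes. atad-3, for a protein of the mitochondrial inner membrane, had the strongest of the listed genes, with 115 in replicate 1 (rank 39), 67.8 in replicate 2 (rank 140) and 178 in the pooled list (rank 63), 419 bases upstream. vps-4, which disassembles membrane-remodelling complexes, had 34.0 in replicate 1 (rank 685), 30.9 in replicate 2 (rank 851) and 57.9 in the pooled list (rank 912). A pooled candidate was at 12 of the 25 starts, near the 43.2% of all protein-coding genes, and a reproducible summit was within 5000 bases of 6 genes, against 12.1%. Below the reproducible list were ruvb-1 at 51.0, ruvb-2 at 42.6 and the proteasome gene rpt-2 at 41.8 in the pooled list, and the ruvb-1 region was nearer to the start of tofu-1. The median of the strongest pooled region within 5000 bases was 34.3, against 31.8 over all protein-coding genes with one. The atad-3 signal of 178 is the highest at the start of any listed gene other than cdc-48.1, which had 899.

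By the signals at their starts in both replicates, rpl-3, K01G5.10 and tasp-1 were nearest to cdc-48.1 among 5185 genes with a start region in each replicate. The measure was the sum over 2 replicates of the absolute log2 ratio to cdc-48.1, which was 1.62 for rpl-3 and 2.09 for K01G5.10 and tasp-1, whose starts share 1 region. rpl-3, a ribosomal protein gene, had 280 in replicate 1 and 236 in replicate 2, with rank 2 in each. The region shared by K01G5.10 and tasp-1 had 217 in replicate 1 (rank 4) and 220 in replicate 2 (rank 3).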

How the data were processed

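ChIP-seq was measured in 2 biological replicates of 1 group. The peak lists, 4 on ce10 and 4 on ce11, were used as deposited by the authors, and column 7, the peak signal, was given by the authors' caller against a control alignment, per the descriptions deposited beside the files. Neither caller nor aligner is given in the sources used here, and depth is unknown. Gene models came from Ensembl release 115 and sequence from RefSeq, both for WBcel235, the build of the ce11 lists. The ce10 lists gave only ranks and signals.

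Summits were placed with Python 3.11.15, numpy 2.4.6, pandas 2.3.3 and Biopython 1.88, which also aligned sequences (global alignment), and ranks follow the signal. A summit from 1000 bases upstream to 500 bases downstream of a gene's 5′ end counted as at its start, and regions of different lists matched when they shared at least 1 base. The window counts were tested on simulated data. The 16 words were searched on both strands, and all 31-base words were counted over the genome. The list symbols edem-1, edem-2, edem-3 and fign-1, were not matched.

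The members and lists were chosen with earlier results of these data known. Named genes were the members, genes whose 5′ end lay within 5000 bases of a reproducible region near a member, list genes with a reproducible summit at their start and up to 3 below the list, and the 3 genes most like cdc-48.1. Other neighbours were named after their values were seen.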

Additional observations from a re-analysis of the deposited data

How the results depend on the processing

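cdc-48.1 was the 1 gene of the 5 with a reproducible summit at its start under all 8 alternatives tried. These alternatives could not have changed that count, so it does not show robustness. The other genes had no reproducible region within 5000 bases. Their best rank in either replicate was 2285 (cdc-48.2, replicate 2), too low for the regions kept with 1 replicate left out. The strongest region of cdc-48.1 had rank 1 in every ce11 list. On ce10 a region of chromosome II had rank 1, and it was not placed against genes. With 1 replicate left out its summit lay at -169 (replicate 2) or -166 bases (replicate 1), against -171 bases. The share of protein-coding genes was 3.11% without replicate 1 and 3.07% without replicate 2. It was 5.22% with 2000 bases to each side, 12.1% within 5000 bases of the gene body and 1.81% with the stronger 515 regions. With 2000 bases to each side the count was 2 of 11 CDC-48 partner genes and 4 of 25 AAA ATPase genes, and within 5000 bases of the gene body 4 of 11 partner, 4 of 10 ERAD and 6 of 25 AAA ATPase genes. With the stronger 515 regions 0 ERAD genes and 1 AAA ATPase gene were counted. Without replicate 1 or without replicate 2, 0 ERAD genes were counted, and AAA ATPase genes numbered 3 without replicate 1 and 2 without replicate 2. The partner count was 1 in both cases, but not for the same gene. Without replicate 2 it was ufd-3, at rank 190 in replicate 1. Without replicate 1, ufd-3 was lost, because its rank of 1119 in replicate 2 was too low for the regions kept. ubxn-3 was inside them, at rank 883 in replicate 2, so the ufd-3 call rests on replicate 1 and the pooled list. Wider windows count more genes, and fewer regions count fewer, by construction. Within 50 bases of the cdc-48.1 summit 1 of the 16 words was found, against 3 in the region. cdc-48.1 has 1 annotated transcript, so no other start of it could be tried. No paired analysis was possible because the series has 1 group.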
